A study of Mus musculus with 238 samples.

Results

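Dietary restriction in the motor cortex was examined in 9 of the 238 libraries of the series, taken as every library labelled motor cortex of the dietary intervention group. The mice were females of the C57BL/6JN strain, 19 months old, and each gave 1 library: 5 mice under dietary restriction (aDR, mice 61, 62, 64, 65 and 67) and 4 fed ad libitum (AL, mice 63, 66, 68 and 69). Neither group carried an allele or received another agent by its labels, and the labels give no hour of feeding or of tissue collection. RNA of homogenised tissue was copied with Smart-Seq2 and tagmented with Nextera XT into unstranded libraries, so each value is a mean over all cells of the dissected tissue. The reference was 4 other comparisons: diet in visual cortex (5 aDR and 4 AL libraries of the same mice), in entorhinal cortex (5 and 3) and in liver (5 libraries labelled DR and 4 AL), and, in motor cortex of 19-month-old males of the strain, retro-orbital injection of young mouse plasma (YMP, 3 mice) against PBS (4 mice).

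The motor cortex is a layered sheet of excitatory and inhibitory neurons with astrocytes, oligodendrocytes, microglia and vessels between them. Its cells carry a circadian clock, in which CLOCK and BMAL1 (gene Arntl) drive the Per and Cry genes through E-box sequences, PER and CRY proteins hold CLOCK and BMAL1 back, and REV-ERB proteins repress Arntl. Meal timing, body temperature and adrenal glucocorticoids are known to reach this clock in peripheral tissues and brain. The glucocorticoid receptor acts on its own set of genes, such as Tsc22d3 and Fkbp5, and the RNA-binding proteins CIRBP and RBM3 are known for their induction by mild cooling.

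Totals ran from 4.01 M to 14.3 M counts in the 5 aDR libraries and from 4.93 M to 17.3 M counts in the 4 AL libraries. Mitochondrial genes held 2.15 to 2.70% of the counts. Pairs of the 9 libraries, within and between the diet groups, correlated at 0.985 to 0.994 (Pearson, log2 CPM across genes). Every one of the 16 pairs within a group differed by more than sampling noise. Xist stood at 172 to 216 CPM (counts scaled to a common library size) and the Y-linked Ddx3y at 0 in all 9 libraries. The excitatory neuron marker Slc17a7 stood at 531 to 643 CPM and the 12 choroid plexus genes summed to 3.14 to 5.21 CPM, with Otx2 at 0 in all 9 libraries. Library 62 (aDR) held 112 CPM of 5 blood genes against 5.29 to 24.2 CPM in the other 8 libraries, and library 64 (aDR) held 2097 CPM of 11 meningeal fibroblast genes against 982 to 1448 CPM. Of the 11 meningeal genes, Ptgds made up most of that sum (1973 CPM in library 64). In the diet test edgeR, DESeq2 and limma-voom called 0 of 4 tested blood genes (4 higher at an unadjusted p of 0.05, median log2 change 2.08, and 0.83 without library 62) and 0 of 11 meningeal genes (2 lower, median -0.20, which was -0.37 without library 64 and -0.073 without AL mouse 69), and without a filter on low counts the blood gene Hba-a1 was called higher.

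**Figure D1:**
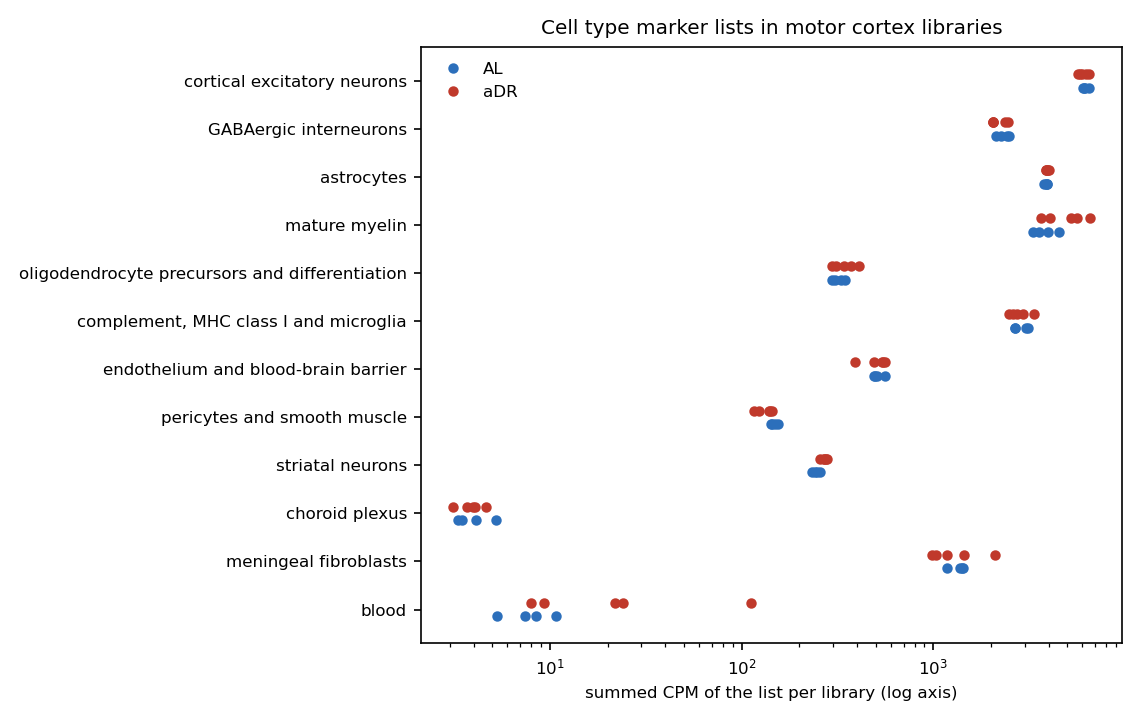
Summed CPM of 12 marker lists in each motor cortex library (log axis); blue points are the 4 AL and red points the 5 aDR libraries. Excitatory neuron genes sum to 5695 to 6470 CPM in every library and choroid plexus genes to at most 5.21 CPM, and 1 aDR library stands apart at 112 CPM of blood genes.

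Of 13128 genes tested in motor cortex, 33 (0.251%) passed an adjusted p of 0.05 in the quasi-likelihood test of edgeR: 22 were higher in aDR (0.168%) and 11 were lower (0.0838%). By smallest p, the higher genes were led by the cold-inducible Rbm3, the clock gene Ciart, the glucocorticoid-induced Tsc22d3 and the cold-inducible Cirbp. Mir9-3hg, Dbp, Etnppl and Plin4 came next. The lower genes were led by Arntl, which encodes BMAL1. At an unadjusted p of 0.05 the counts were 733 higher (5.58%) and 646 lower (4.92%). The CPM of the 2 groups did not overlap for 494 genes (3.76%), with aDR above AL for 267 (2.03%) and below for 227 (1.73%), and all 33 called genes were among them. The call rested on single libraries for many genes: leaving out each library in turn gave 9 to 128 called genes, with 9 without AL mouse 68, 12 without aDR mouse 67 and 128 without aDR mouse 64, the library with the highest meningeal sum. Called in all 9 of these fits were Rbm3, Ciart, Tsc22d3, Cirbp, Mir9-3hg, Dbp, Etnppl, Plin4 and Arntl.

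**Figure D2:**
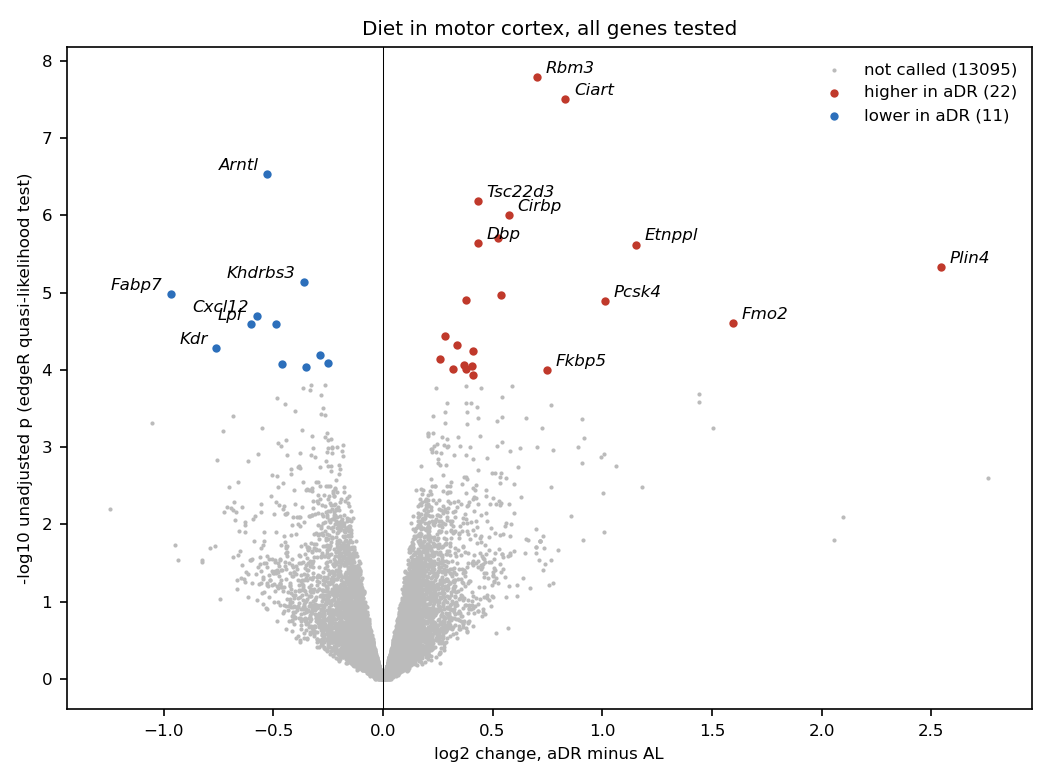
Each point is 1 of 13128 genes; the x axis is the log2 change (aDR minus AL) and the y axis -log10 of the unadjusted p. The 22 genes called higher (red) include changes up to 2.55 (Plin4), and the 11 called lower (blue) reach -0.97 (Fabp7).

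Among the repressors of the clock, Ciart and Per1 rose in aDR, and the other 8 of the 10 genes listed here were estimated higher without passing the edgeR test. DESeq2 called 4 of the 10 higher (Bhlhe41 and Cry1 besides Ciart and Per1), as did the edgeR fits without aDR mouse 64 and without a filter on low counts, and Ciart alone was called without aDR mouse 67 or without AL mouse 68. The median log2 change of the 10 was 0.30, beside 0.0017 over all genes tested, and 6 of them were higher at an unadjusted p of 0.05. This list was chosen with earlier results of these data known, so its counts are descriptive. Ciart, whose protein binds and represses CLOCK and BMAL1, lies at chr3:95878500-95882257 (RefSeq, GRCm38.p6, the source of all gene positions given here). It stood at 70.1, 60.1, 70.8, 52.5 and 66.3 CPM in the aDR libraries and at 41.1, 35.3, 35.5 and 33.3 CPM in the AL libraries. The lowest aDR library was thus above the highest AL library, and the log2 change was 0.83 (SE 0.088, edgeR adjusted p = 0.000206), a fitted ratio of 1.78. Per1, a period protein gene at chr11:69095108-69109965, stood at 57.1, 60.9, 54.2, 60.3 and 61.97 CPM in aDR and 41.3, 50.2, 41.2 and 49.7 CPM in AL. The groups came within a few CPM of each other without overlapping, and the log2 change of Per1 was 0.38 (SE 0.075, edgeR adjusted p = 0.0409). Its call was lost in 7 of the 9 fits that left out a library, up to an adjusted p of 0.261 without AL mouse 68.

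Bhlhe41 and Cry1, both transcriptional repressors of the clock, had log2 changes of 0.40 (edgeR adjusted p = 0.0724) and 0.38 (0.0959). Bhlhe41 stood at 75.1, 60.3, 54.2, 54.6 and 59.5 CPM in aDR and 42.96, 47.5, 41.8 and 49.8 CPM in AL, with no overlap, while Cry1 stood at 45.6, 39.8, 40.8, 46.1 and 45.4 CPM and 30.9, 28.5, 31.7 and 39.9 CPM, where AL mouse 69 was above the lowest aDR library by a small margin. Per3 was at 84.3 ± 4.76 (SD, n = 5) CPM in aDR and 72.2 ± 1.88 (SD, n = 4) CPM in AL, and its log2 change was 0.23 (edgeR adjusted p = 0.125). Per2 overlapped between the groups, at 58.3, 55.2, 55.4, 57.2 and 70.1 CPM in aDR and 37.8, 50.8, 39.1 and 55.7 CPM in AL. Of the 2 REV-ERB genes, Nr1d1 differed by 0.022 (95% interval -0.11 to 0.16) and Nr1d2 by 0.12 (-0.021 to 0.26) on the log2 scale. Cry2 and Bhlhe40 had log2 changes of 0.058 and 0.05. The sum of the 10 repressor genes was 1209 to 1252 CPM in aDR and 1044 to 1190 CPM in AL.

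The sequences before the starts of these genes were searched on both strands for the perfect E-box CACGTG, which CLOCK and BMAL1 bind, and for the D-box TTATGTAA, which DBP and its relatives bind, in the 250 bases before each RefSeq gene start (GRCm38.p6). The E-box stood in 6.02% and the D-box in 0.819% of 32851 such windows. Counted by gene, with any window of the gene, the shares were 6.86% and 0.977% of 27025 genes. Of the 21 genes of the clock lists, 18 had a window, 5 of these held an E-box (Bhlhe41, Ciart, Cry1, Per1 and Tef) and Per3 held the D-box. The stretches below, 5′ to 3′ along the gene and without bases of annotated exons, are shown because they precede the repressor genes whose window held a match. Capitals mark the motif. Ciart (chr3:95882258-95882478, minus strand) held 3 E-boxes, which began 116, 58 and 44 bases before its start, in a stretch that also lies inside the transcript of C920021L13Rik. Per1 (chr11:69098699-69098947, plus strand) held 1 E-box at 166 bases, before a start that lies inside the longest annotated transcript. Cry1 (chr10:85185065-85185304, minus strand) held 1 at 60 bases, Bhlhe41 (chr6:145865559-145865670, minus strand) 1 at 153 bases, and Per3 (chr4:151044708-151044915, minus strand) 2 D-boxes at 205 and 158 bases. A match describes these letters and shows no binding.
Ciart: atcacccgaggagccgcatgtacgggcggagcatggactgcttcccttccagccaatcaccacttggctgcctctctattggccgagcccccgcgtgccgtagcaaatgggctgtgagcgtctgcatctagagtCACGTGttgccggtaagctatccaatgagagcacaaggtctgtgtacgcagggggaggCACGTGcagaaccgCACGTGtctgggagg
Per1: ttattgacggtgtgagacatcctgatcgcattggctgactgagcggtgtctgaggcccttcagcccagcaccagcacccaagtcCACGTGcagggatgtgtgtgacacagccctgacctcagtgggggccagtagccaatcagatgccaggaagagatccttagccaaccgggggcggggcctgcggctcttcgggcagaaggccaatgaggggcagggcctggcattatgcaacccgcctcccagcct
Cry1: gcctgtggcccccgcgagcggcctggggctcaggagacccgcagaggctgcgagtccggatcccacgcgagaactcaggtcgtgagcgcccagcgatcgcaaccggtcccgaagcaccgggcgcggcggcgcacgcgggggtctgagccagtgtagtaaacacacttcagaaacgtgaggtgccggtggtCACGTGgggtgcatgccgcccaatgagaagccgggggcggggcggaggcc
Bhlhe41: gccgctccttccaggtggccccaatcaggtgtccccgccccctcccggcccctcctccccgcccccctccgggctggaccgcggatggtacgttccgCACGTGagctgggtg
Per3: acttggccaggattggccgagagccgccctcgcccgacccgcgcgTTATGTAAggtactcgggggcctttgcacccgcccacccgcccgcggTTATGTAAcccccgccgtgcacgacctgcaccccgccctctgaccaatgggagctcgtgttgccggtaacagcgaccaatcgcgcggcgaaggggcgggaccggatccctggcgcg

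On the activating side, Arntl fell in aDR and was the 1 called gene of 6. Arntl (chr7:113178471-113314126) stood at 40.4, 39.8, 37.3, 39.4 and 33.9 CPM in aDR and at 55.4, 55.5, 54.1 and 53.4 CPM in AL, so that the AL libraries lay within a few CPM of each other and well above every aDR library. Its log2 change was -0.53 (SE 0.065, edgeR adjusted p = 0.00129), a fall of 30.7%. Its partner genes Clock (-0.10, 95% interval -0.26 to 0.052) and Npas2 (-0.10, -0.27 to 0.076) had small log2 estimates. The ROR activators Rora and Rorb were at -0.087 and 0.035, neither of them called. Among the 5 output factors, Dbp rose. Dbp, a PAR bZIP factor that acts through D-boxes, stood at 126, 146, 147, 131 and 126 CPM in aDR and 107, 95.2, 97.03 and 101 CPM in AL, again with no overlap, and its log2 change was 0.44 (SE 0.063, edgeR adjusted p = 0.00392). Exons of Sphk2 lie within the span of Dbp (chr7:45705100-45710203), and unstranded counts cannot separate reads that both genes cover. The related Tef and Hlf had log2 changes of 0.18 and 0.17 (edgeR adjusted p = 0.289 and 0.161), the deubiquitinase gene Usp2 0.19, and the opposing repressor Nfil3 -0.19 (95% interval -0.43 to 0.056).

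**Figure D3:**
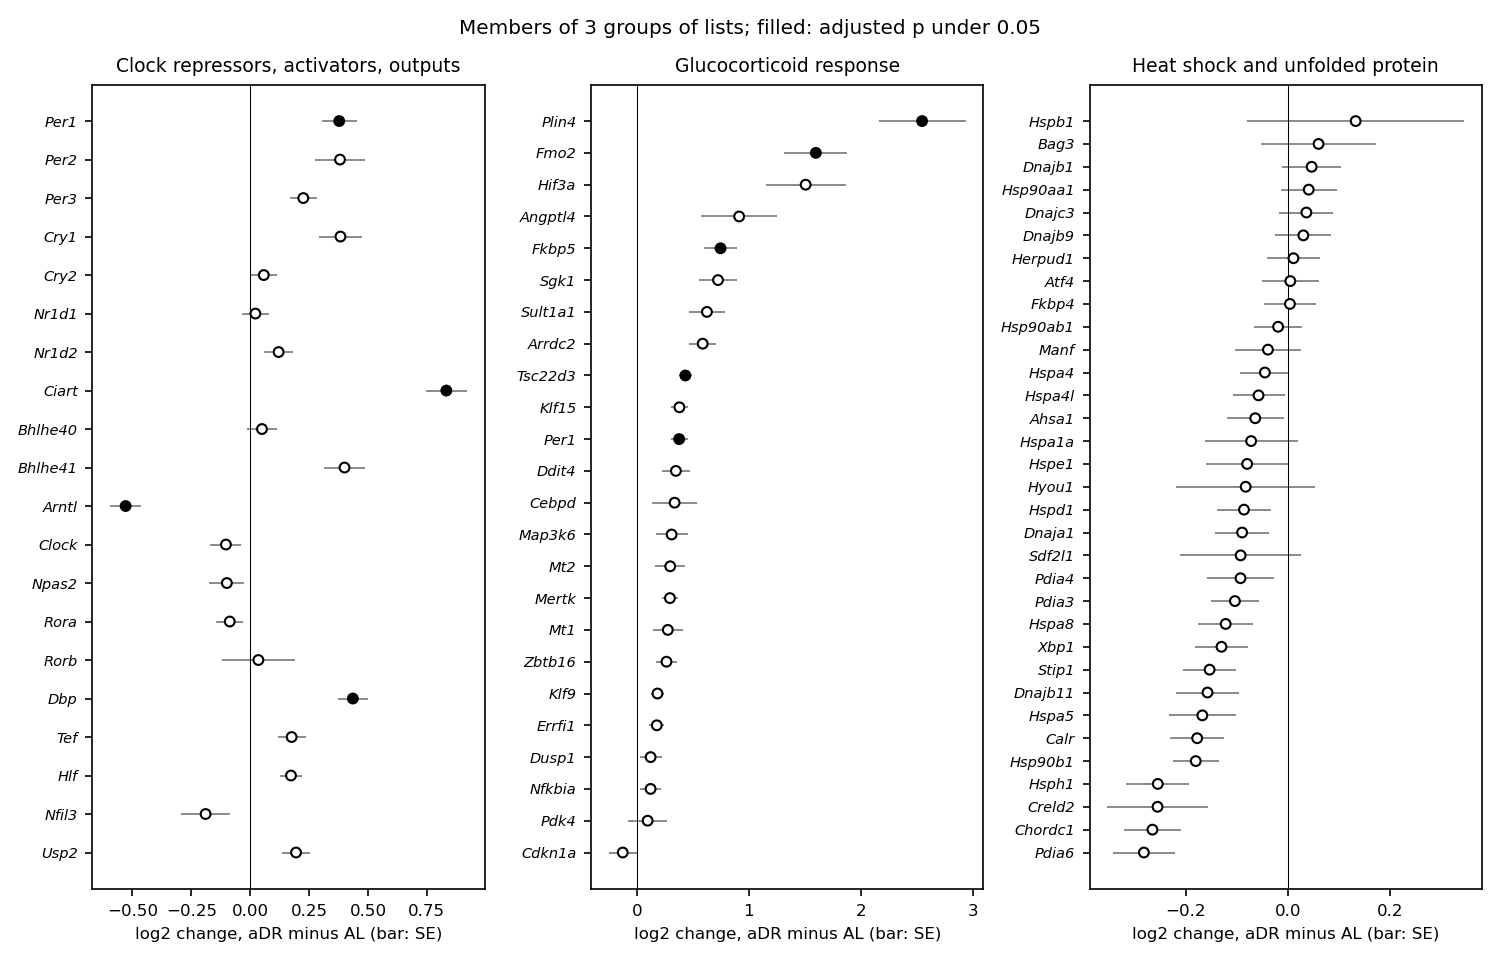
Log2 change (aDR minus AL) of single genes in motor cortex, with bars of 1 SE; filled points passed an adjusted p of 0.05. Ciart, Per1 and Dbp lie to the right of 0 and Arntl to the left, 23 of the 24 glucocorticoid response genes have estimates above 0, and no chaperone gene is filled. List members were chosen with earlier results of these data known.

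Of 24 tested genes of the glucocorticoid response, 5 rose in aDR (Plin4, Fmo2, Fkbp5, Tsc22d3 and Per1, described above) and 0 fell. The median log2 change of the 24 was 0.34, with 23 estimates above 0 and 18 higher at an unadjusted p of 0.05. The members were chosen with earlier results of these data known, so these counts are no test of a glucocorticoid response. Tsc22d3 (chrX:140539528-140600522), which encodes the anti-inflammatory leucine zipper protein GILZ, stood at 178, 166, 160.2, 164 and 185 CPM in aDR and 118, 127, 130.3 and 129 CPM in AL. The groups were far apart relative to their spread, and the log2 change was 0.43 (SE 0.057, edgeR adjusted p = 0.00215). Fkbp5 (chr17:28398753-28486149), a co-chaperone that dampens the receptor, stood at 54.1, 34.8, 43.2, 38.2 and 65.2 CPM in aDR and 28.8, 22.6, 30.6 and 29.6 CPM in AL. The aDR libraries spread widely there, from a value close to the AL range to more than any other library, and the log2 change was 0.75 (SE 0.15, edgeR adjusted p = 0.0409). This call was lost in 6 of the 9 fits that left out a library (adjusted p up to 0.141, without AL mouse 68) and with DESeq2, limma-voom, all motor cortex libraries or all brain libraries in the fit.

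Plin4 (chr17:56100587-56109948), a coat protein of lipid droplets, had the largest log2 change of the called genes, 2.55 (SE 0.39, edgeR adjusted p = 0.00681). It stood at 10.97, 6.24, 6.19, 5.56 and 18.9 CPM in aDR and 1.49, 1.22, 2.41 and 1.25 CPM in AL. Mouse 67 was far above the other restricted mice, and all 5 were above every AL mouse; without mouse 67 the log2 change of Plin4 was 1.98. Exons of Hdgfl2 overlap this gene, so part of the count may belong to it. Fmo2, a flavin-containing monooxygenase, stood at 5.74, 5.57, 4.64, 5.23 and 9.97 CPM in aDR and 1.16, 1.02, 2.35 and 2.94 CPM in AL, and its log2 change was 1.60 (SE 0.28, edgeR adjusted p = 0.0185). Its call was lost when aDR mouse 67 or AL mouse 63, 66 or 68 was left out (adjusted p up to 0.11).

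DESeq2 called 7 genes of this list higher, Klf15, Arrdc2 and Hif3a among them. In edgeR the genes that missed the threshold by the least were Klf15 and Arrdc2 (log2 changes 0.38 and 0.59, edgeR adjusted p = 0.0569 for both), a Krüppel-like factor and an arrestin domain protein. Neither overlapped between the groups. The kinase gene Sgk1 stood at 204, 115, 105, 155 and 228 CPM in aDR and 92.7, 92.2, 99.9 and 104 CPM in AL, a log2 change of 0.72 (edgeR adjusted p = 0.105), with mice 61 and 67 at the top and mouse 64 just above the AL range. Hif3a was low, at 4.24, 3.54, 2.71, 1.96 and 6.76 CPM in aDR and 0.496, 2.04, 1.89 and 1.102 CPM in AL, a log2 change of 1.51 (0.105). Mertk, Sult1a1, Zbtb16 and Klf9 had log2 changes of 0.30, 0.63, 0.26 and 0.18. The cell cycle inhibitor gene Cdkn1a was the 1 member with an estimate below 0 (-0.13). Mouse 67 had the highest aDR value for 20 of the 24 genes, whereas in the AL group no mouse led more than 8. The summed CPM of the 25 listed genes was 1616, 1508, 1602, 1460 and 1896 in the aDR libraries and 1309, 1246, 1309 and 1339 in AL, so the sums did not overlap with mouse 67 in or out. Without aDR mouse 67, and likewise without AL mouse 68, the edgeR calls on this list went from 5 to 2 (Plin4 and Tsc22d3), and without aDR mouse 64 or without a filter on low counts they went to 9.

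Of the 25 listed genes, 22 had a promoter window, and the full glucocorticoid response element (AGAACA, any 3 bases, TGTTCT) was found in 1 of them, Sgk1. The element stood in 3 of all 32851 windows (0.00913%), and by gene in 3 of 27025 (0.0111%). Sgk1 has 6 annotated starts, and the element began 189 bases before the start whose window is chr10:21993640-21993889 (plus strand, GRCm38.p6), inside the longer Sgk1 transcripts and outside annotated exons. It is shown with the element in capitals.
Sgk1: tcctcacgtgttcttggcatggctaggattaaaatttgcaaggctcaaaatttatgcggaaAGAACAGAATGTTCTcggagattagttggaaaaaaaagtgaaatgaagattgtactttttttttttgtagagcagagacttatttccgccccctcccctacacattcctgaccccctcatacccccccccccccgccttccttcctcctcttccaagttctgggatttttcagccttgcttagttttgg

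Both cold-inducible RNA-binding protein genes rose in aDR, and they were called in all 17 alternative fits. Rbm3 (chrX:8138975-8145880) had the smallest p of all genes. It stood at 130.2, 129.8, 124, 115 and 111 CPM in aDR and 80.96, 70.1, 67.3 and 80.4 CPM in AL, a difference of 0.70 ± 0.071 on the log2 scale (SE, edgeR adjusted p = 0.000206). Cirbp (chr10:80165990-80172786) stood at 165, 174, 171, 153 and 133 CPM in aDR and 118, 109, 97.7 and 103 CPM in AL, a difference of 0.58 ± 0.078 on the log2 scale (SE, edgeR adjusted p = 0.0026). In both genes mouse 67, which led the glucocorticoid genes, was the lowest of the aDR mice. Exons of the antisense gene Rbm3os lie within the span of Rbm3, and unstranded counts cannot separate reads that both genes cover.

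**Figure D4:**
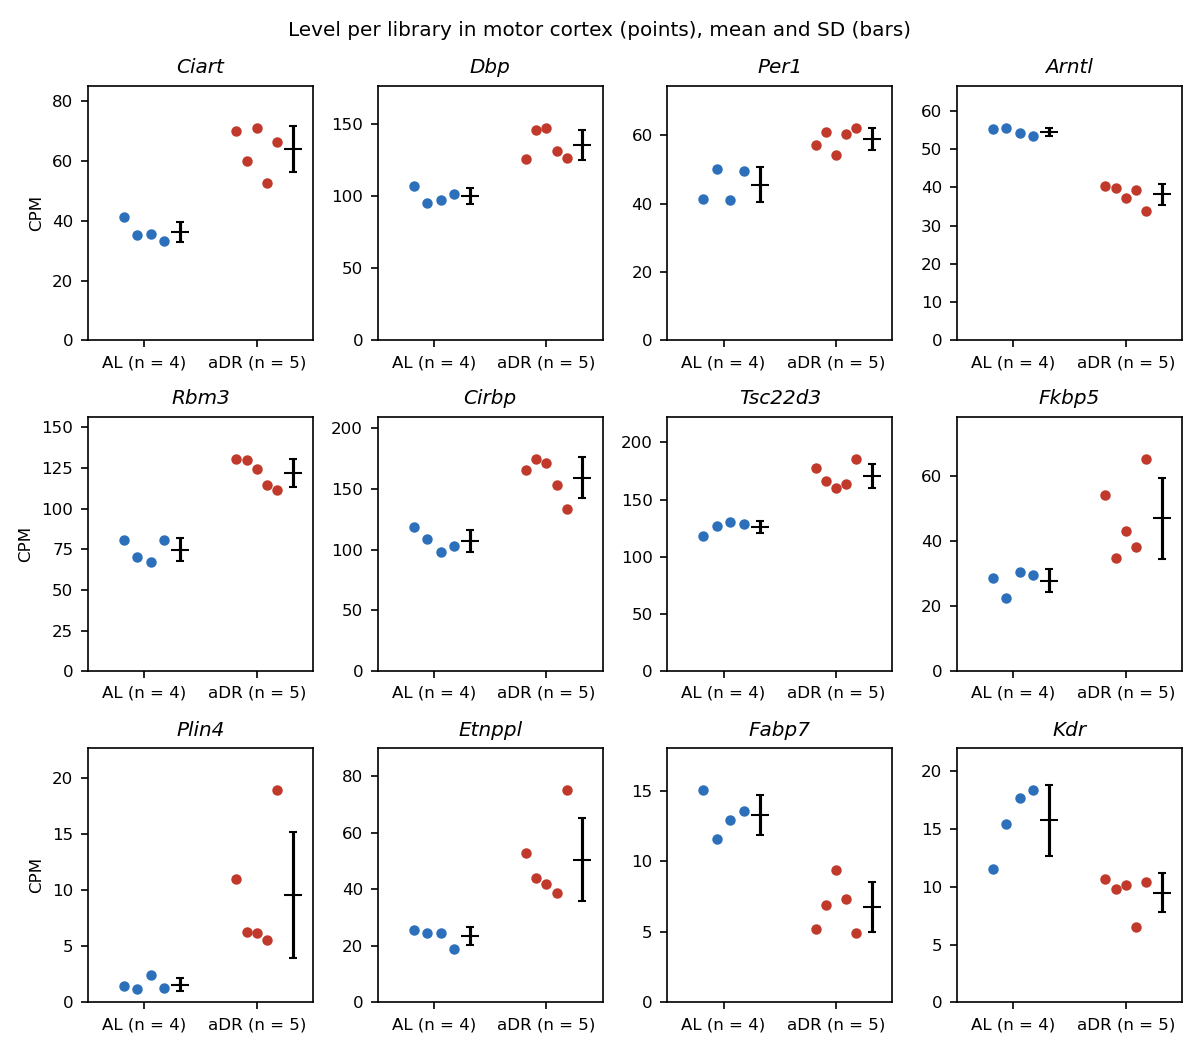
CPM of 12 genes in each motor cortex library (points; blue AL, red aDR), with mean and SD at the right of each group; every axis starts at 0. None of the 12 genes overlaps between the groups. In Per1, Tsc22d3, Fkbp5, Plin4 and Etnppl mouse 67 is the highest of the aDR libraries.

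Chaperone genes had mostly negative estimates, and none passed the test in edgeR. Of 16 tested genes of the unfolded protein response, 12 were estimated lower in aDR and 4 higher, with 8 lower at an unadjusted p of 0.05 and a median log2 change of -0.098. The summed CPM of this list was 1594, 1631, 1723, 1671 and 1715 in aDR and 1819, 1830, 1875 and 1775 in AL, without overlap. Pdia6, a protein disulphide isomerase of the endoplasmic reticulum, stood at 105, 109.5, 121, 114 and 119.8 CPM in aDR and 132, 149.9, 145 and 130.4 CPM in AL, a log2 change of -0.28 (edgeR adjusted p = 0.0648). The ER chaperone genes Hsp90b1 (-0.18), Calr (-0.18) and Hspa5 (-0.17) had log2 estimates of a like size. Of 17 tested heat shock chaperones and cofactors, 12 were estimated lower and 5 higher (median -0.064, 4 lower at an unadjusted p of 0.05). The lowest were the HSP90 cofactor Chordc1 (-0.27, edgeR adjusted p = 0.0569) and the HSP110 gene Hsph1 (-0.26, 0.113), whereas Hsp90aa1 was at 0.041 and Hspb1 at 0.13. DESeq2 called 2 genes of each list lower (Chordc1 and Hsph1, Hsp90b1 and Pdia6), and limma-voom called 0.

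In astrocytes, 2 of 16 listed genes changed, in opposite directions. In homogenised tissue, fewer cells of a type and less RNA per cell cannot be told apart. Etnppl (chr3:130617448-130635750), which breaks down phosphoethanolamine and is expressed by astrocytes, rose. It stood at 52.9, 44.2, 41.8, 38.7 and 75.1 CPM in aDR and 25.8, 24.5, 24.7 and 18.9 CPM in AL, a difference of 1.15 ± 0.17 on the log2 scale (SE, edgeR adjusted p = 0.00392), with mouse 67 again the highest. Fabp7 (chr10:57784923-57788450), a fatty acid binding protein of astrocytes and radial glia, fell by 48.8%. It stood at 5.24, 6.92, 9.38, 7.36 and 4.95 CPM in aDR and 15.04, 11.6, 12.9 and 13.6 CPM in AL, a difference of -0.97 ± 0.16 on the log2 scale (SE, edgeR adjusted p = 0.0118; 0.0669 without AL mouse 68). None of the other 14 astrocyte genes was called, with log2 estimates of -0.036 for Aldh1l1, -0.03 for the glutamate transporter Slc1a3, 0.086 for its relative Slc1a2, -0.049 for the connexin Gja1 and -0.22 for the water channel Aqp4. The list summed to 3853 to 4024 CPM in aDR and 3806 to 3945 CPM in AL.

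Of 20 endothelial genes 1 fell, Kdr, and of 10 genes of pericytes and smooth muscle 0 were called. Kdr (chr5:75932827-75979072), the main VEGF receptor of endothelium, fell by 40.97%: it stood at 10.7, 9.79, 10.1, 6.54 and 10.4 CPM in aDR and 11.6, 15.5, 17.7 and 18.4 CPM in AL, a difference of -0.76 ± 0.14 on the log2 scale (SE, edgeR adjusted p = 0.0326). AL mouse 63 was close to the aDR range, and the call was lost in 7 of the 9 fits that left out a library, up to an adjusted p of 0.205 without AL mouse 68. Other endothelial receptor genes had log2 changes of -0.55 (Tie1, edgeR adjusted p = 0.105), -0.41 (Tek, 0.229), -0.34 (Flt1, 0.229) and -0.43 (Cdh5). Some transporter genes of the blood-brain barrier went the other way in estimate, none called. They were at 0.22 for the glucose transporter Slc2a1, 0.38 for the lipid transporter Mfsd2a and 0.22 for Slco1a4. Slco1a4 was chosen after its value was seen, and the listed transporter genes Slco1c1, Abcb1a and Abcg2 are not reported here. Of the 20 endothelial genes 14 were estimated lower and 6 higher (median -0.14; 6 lower and 3 higher at an unadjusted p of 0.05), and their summed CPM overlapped (391 to 559 in aDR, 493 to 562 in AL), with mouse 65 lowest. The median was -0.015 without aDR mouse 65 and -0.093 without AL mouse 68. Pericyte and smooth muscle genes were estimated lower for 9 of 10 (median -0.16, and -0.10 without AL mouse 68; 0 called by edgeR, DESeq2 or limma-voom, 1 lower at an unadjusted p of 0.05).

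Cxcl12, a chemokine of vessels and other cells, stood at 37.2, 50.6, 53.7, 34.2 and 46.1 CPM in aDR and 65.4, 66.3, 66.5 and 69.7 CPM in AL. The AL values were tightly grouped and all above the aDR values, and the log2 change was -0.57 (SE 0.10, edgeR adjusted p = 0.0178; 0.0885 without AL mouse 68). Cx3cl1, the fractalkine that neurons present to microglia, stood at 809.9, 924, 917, 898 and 879.8 CPM in aDR and 1039, 1096, 1033 and 1045 CPM in AL, a difference of -0.25 ± 0.048 on the log2 scale (SE, edgeR adjusted p = 0.0409; 0.138 without AL mouse 66). Its receptor gene Cx3cr1 had a log2 change of -0.17 (95% interval -0.33 to -0.007) and was not called. Olfml3, a secreted protein gene expressed by microglia, fell by 28.8% (log2 change -0.49, SE 0.086, edgeR adjusted p = 0.0185; 0.0974 without AL mouse 69).

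Lpl, the lipoprotein lipase, was the 1 called gene of 20 in the list of complement, MHC class I and microglia. It stood at 9.48, 9.45, 10.1, 8.99 and 9.55 CPM in aDR and 15.4, 11.4, 15.3 and 14.9 CPM in AL, where AL mouse 66 was much lower than the other 3, and its log2 change was -0.60 (SE 0.11, edgeR adjusted p = 0.0185; 0.141 without AL mouse 68). The list leaned to lower estimates, with 17 of 20 below 0 and a median of -0.11 (-0.062 without AL mouse 68). The homeostatic microglia genes Tmem119 and P2ry12 had log2 changes of -0.31 and -0.17, neither called. Complement C4b was estimated higher (0.76, edgeR adjusted p = 0.414), a value set by 1 library: mouse 67 stood at 47.5 CPM and the other 8 libraries at 12.7 to 17.8 CPM, and without it the log2 change of C4b was 0.07. In the interferon response list 12 of 14 tested genes were estimated lower (median -0.26), and without AL mouse 68 the median was -0.066. Of these genes 1 was lower at an unadjusted p of 0.05 (Ifitm3, -0.68, edgeR adjusted p = 0.0873). EdgeR and limma-voom called 0 of them and DESeq2 called Ifitm3.

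Myelin genes were estimated higher in aDR for 12 of 14 members (median log2 change 0.28, 8 at an unadjusted p of 0.05), and edgeR, DESeq2 and limma-voom called 0 of them. Their summed CPM was 5655, 4079, 3632, 5206 and 6586 in aDR mice 61, 62, 64, 65 and 67 and 3971, 4541, 3570 and 3333 in AL mice 63, 66, 68 and 69. Mice 61, 65 and 67 were thus above all AL mice, and mice 62 and 64 were within the AL range. The highest log2 estimates were Mal (0.62, edgeR adjusted p = 0.163), Mobp (0.56), Cldn11 (0.50), Mbp (0.43) and Mog (0.42); without aDR mouse 64, 5 myelin genes were called higher. Some markers of deep cortical layers, chosen after their values were seen, were high in some of the same libraries. The 19 tested excitatory neuron markers, to which they belong, had a median log2 change of 0.050, with 13 higher and 6 lower estimates. Other deep-layer members of that list, such as Tle4 and Fezf2, are not reported here. Syt6, a marker of layer 6 neurons, stood at 16.96, 9.45, 7.73, 18.96 and 15.5 CPM in aDR and 9.25, 16.7, 6.603 and 7.86 CPM in AL, high in mice 61, 65, 67 and AL mouse 66. Foxp2, a factor of layer 6, was likewise highest in these 4 mice, at 19.2, 11.5, 8.796, 24.5 and 20.7 CPM in aDR and 12.2, 17.3, 10.2 and 11.5 CPM in AL. Ccn2, a marker of the deepest layer, stood at 6.48, 2.87, 4.25, 5.07 and 8.23 CPM in aDR and 1.16, 4.28, 1.61 and 2.06 CPM in AL, a log2 change of 1.44 (edgeR adjusted p = 0.0724), with AL mouse 66 the highest AL mouse and mouse 62 the lowest aDR mouse. The part that the share of deep layers in a sample has in the myelin values was not tested. Of 14 genes of oligodendrocyte precursors and their differentiation 9 were estimated higher and 5 lower (median 0.085, at 0.16 with aDR mouse 64 left out and 0.035 with aDR mouse 65 left out), with 2 higher and 1 lower at an unadjusted p of 0.05 and 0 called by the 3 tools.

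Neuronal genes among the 33 were few. Hrh3, the histamine autoreceptor, rose and stood at 169, 197, 181, 200.1 and 185 CPM in aDR and 146, 158, 134 and 154 CPM in AL (log2 change 0.34, SE 0.063, edgeR adjusted p = 0.0314; 0.182 without AL mouse 68). Ppp1r1b encodes DARPP-32, an inhibitor of protein phosphatase 1 in dopamine-responsive neurons. It stood at 79.5, 92.99, 70.5, 74.05 and 78.8 CPM in aDR and 65.4, 53.6, 60.1 and 57.8 CPM in AL, a difference of 0.41 ± 0.078 on the log2 scale (SE, edgeR adjusted p = 0.0342; 0.141 without AL mouse 68). The 11 striatal marker genes to which it belongs summed to 256 to 280 CPM in aDR and 233 to 256 CPM in AL, while the other striatal genes were not called, among them Drd1 0.32, Penk 0.013 and Adora2a -0.23 (log2 changes), with Drd2 at 0.408 to 1.32 CPM. Their part in the Ppp1r1b value was not tested. Pou3f1, a POU factor of pyramidal neurons and glia, rose (0.32, SE 0.063, edgeR adjusted p = 0.0409; 0.205 without AL mouse 68). Of 19 tested markers of excitatory neurons and 16 of interneurons edgeR called 0, with 3 and 2 at an unadjusted p of 0.05; DESeq2 called Neurod6 (-0.28 in edgeR) and Ccn2, and limma-voom called 0. Of 22 glutamate receptor and 12 GABA-A receptor genes edgeR and limma-voom called 0 (4 and 1 at an unadjusted p of 0.05), and DESeq2 called Gabra2 (-0.36 in edgeR).

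Mir9-3hg (chr7:79500026-79534403), the host transcript of a miR-9 hairpin, stood at 56.4, 59.1, 53.4, 51.98 and 50.4 CPM in aDR and 42.1, 34.7, 34.4 and 39.1 CPM in AL, a difference of 0.52 ± 0.075 on the log2 scale (SE, edgeR adjusted p = 0.00392), and rose. Srsf2, a splicing factor gene, rose (0.28, edgeR adjusted p = 0.025, or 0.141 without AL mouse 68). Exons of Mettl23 and Mfsd11 lie within the span of Srsf2, so part of its count may belong to them. Khdrbs3, a splicing regulator also called T-STAR, fell. It stood at 49.9, 45.4, 49.00, 47.7 and 50.6 CPM in aDR and 63.9, 60.8, 62.5 and 62.4 CPM in AL, with a wide gap between the groups, and its log2 change was -0.36 (SE 0.057, edgeR adjusted p = 0.00954; 0.0544 without AL mouse 68). The RNA methyltransferase gene Mettl16 fell as well (-0.35, edgeR adjusted p = 0.0409; 0.158 without AL mouse 69).

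The remaining called genes were 7 that rose and 2 that fell. Pcsk4, a proprotein convertase, stood at 8.98, 8.78, 10.1, 8.99 and 8.99 CPM in aDR and 6.28, 2.45, 4.08 and 5.14 CPM in AL, a difference of 1.01 ± 0.17 on the log2 scale (SE, edgeR adjusted p = 0.0121; 0.123 without AL mouse 68). Klhl40 and Fam205c had log2 changes of 0.54 and 0.38 (edgeR adjusted p = 0.0118 and 0.0121). Pim3, a serine/threonine kinase gene, rose by 0.37 on the log2 scale, Lrrc58 by 0.26, Hmgb3, a chromatin protein gene, by 0.41 and Ankrd13a by 0.40, with adjusted p values from 0.0391 to 0.0463 (edgeR). Dtl, a substrate receptor of a ubiquitin ligase, fell (-0.46, edgeR adjusted p = 0.0409), and so did the zinc finger gene Zfp180 (-0.29, 0.0366). Each of these calls was lost in at least 1 of the fits that left out a library; Klhl40, Pim3, Hmgb3, Ankrd13a and Zfp180 reached adjusted p values of 0.0885, 0.245, 0.261, 0.173 and 0.141 without AL mouse 68, Fam205c 0.0874 without the same mouse, Lrrc58 0.138 without AL mouse 66, and Dtl 0.137 without aDR mouse 67.

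Lists of nutrient and energy metabolism held no called gene. Of 19 genes of fasting and ketone metabolism 15 were estimated higher (median 0.063, and 0.030 without aDR mouse 67; 3 higher and 1 lower at an unadjusted p of 0.05). Angptl4 was the highest of them at 0.91 (95% interval 0.11 to 1.72), while Cpt1a, which admits fatty acids to mitochondria, was at 0.004 (-0.21 to 0.22). Of 24 genes of insulin, IGF, FoxO and mTOR signalling 14 were estimated higher (median 0.040; 2 at an unadjusted p of 0.05), and of 7 sirtuins 4 (median 0.045; 1). For 23 genes of cholesterol synthesis the median was 0.0088 (3 at an unadjusted p of 0.05). For 75 genes of the cytosolic ribosome it was 0.026 (1), for 75 nuclear genes of the respiratory chain -0.030 (0), and for 13 genes of the mitochondrial genome 0.086 (1). DESeq2 and limma-voom also called 0 in each of these lists. The median of the insulin list ran from 0.013 (without AL mouse 63) to 0.073 (without AL mouse 69), and those of the sirtuin, cholesterol, ribosome, respiratory chain and mitochondrial genome lists changed sign when single libraries were left out. Of 18 enzymes of serine and folate metabolism 8 were estimated higher and 10 lower (median -0.030, and 0.023 without AL mouse 68). At an unadjusted p of 0.05, 4 were higher and 0 lower, led by Mthfd1l (0.38, edgeR adjusted p = 0.133) and Psat1 (0.19, 0.261). None of these enzymes was called by any of the 3 tools. Among 22 immediate early genes, whose summed CPM overlapped between the groups, 4 were higher and 2 lower at an unadjusted p of 0.05 and 0 were called by the 3 tools.

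The diet change in motor cortex was set against that in 2 other cortical areas of the same mice, to ask whether it differed between areas. The edgeR interaction test called 0 of 13507 genes for a motor cortex change different from that in visual cortex. Against entorhinal cortex it called 0 of 14332. At an unadjusted p of 0.05 the counts were 554 and 358 genes, and DESeq2 also called 0. With so few mice in each group, the lack of calls does not show that the changes were the same. In visual cortex alone 27 of 13359 genes (0.202%) were called, and 13 of them were among the 33 of motor cortex, all of them higher in aDR: Rbm3, Ciart, Tsc22d3, Cirbp, Mir9-3hg, Dbp, Etnppl, Plin4, Klhl40, Pcsk4, Fmo2, Hrh3 and Fkbp5. In entorhinal cortex edgeR called 0 of 14160 genes (593 at an unadjusted p of 0.05) and DESeq2 5, of which Rbm3, Cirbp, Etnppl and Fabp7 were called in motor cortex. Of the 33 genes, 18 were called in no other of the 15 brain regions. Calls were few there: apart from visual cortex and olfactory bulb (27 and 31 genes), each other region had 0 to 7 called genes in edgeR. A missing call therefore does not show that a change was particular to motor cortex.

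Side by side in motor, visual and entorhinal cortex, the log2 changes were 0.83, 0.90 and 0.51 for Ciart, 0.70, 0.55 and 0.71 for Rbm3, 0.58, 0.65 and 0.63 for Cirbp, 0.43, 0.52 and 0.58 for Tsc22d3 and 1.15, 1.15 and 1.36 for Etnppl. Arntl gave -0.53, -0.30 and -0.43, Fabp7 -0.97, -0.35 and -0.87, Cxcl12 -0.57, -0.32 and -0.33 and Kdr -0.76, -0.47 and -0.29. These 4 genes were chosen for a call in motor cortex, so the order of the areas is not a result. The difference between motor and visual cortex was -0.62 for Fabp7 and -0.23 for Arntl, with unadjusted p of 0.0189 and 0.0337 in edgeR; neither passed the adjustment over all genes. Per1 gave 0.38, 0.25 and -0.017, and its motor minus entorhinal difference was 0.39 (edgeR unadjusted p = 0.00836, also not past the adjustment). In the other 14 brain regions, the Arntl estimate ran from -0.66 to -0.065 and that of Rbm3 from 0.40 to 0.92. Of the 33 called genes, 16 had estimates of both signs across the other regions and 17 of 1 sign. Among the 16 were Per1 (-0.017 to 0.75), Kdr (-1.06 to 0.10), Cxcl12 (-0.52 to 0.18), Lpl (-0.42 to 1.76) and Khdrbs3 (-0.57 to 0.23).

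**Figure D5:**
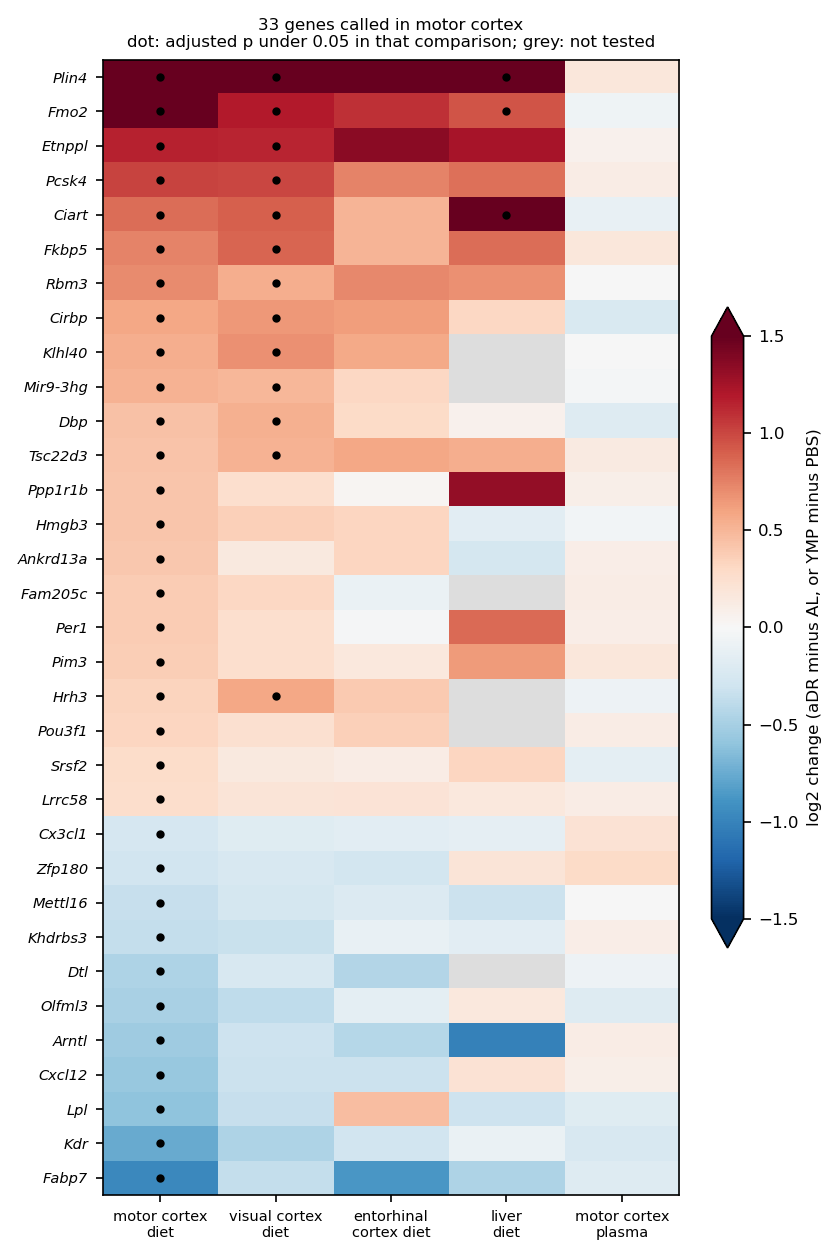
Log2 change of the 33 genes called in motor cortex (rows) in 5 comparisons (columns); red is higher and blue lower in the treated group, dots mark an adjusted p under 0.05 in that comparison and grey a gene not tested. The first 3 columns share mice; 13 of the 33 carry a dot in visual cortex, 0 in entorhinal cortex, 3 in liver and 0 under plasma.

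In liver, where edgeR called 26 of 11815 genes (0.22%) between the same mice on the 2 diets, 27 of the 33 genes were tested and 3 were called. Ciart had a log2 change of 1.97 (edgeR adjusted p = 0.00229), Plin4 2.80 (0.00495) and Fmo2 0.95 (0.0254), all higher in the restricted mice. Arntl was at -1.01 (0.287), Per1 at 0.85 (0.375), Rbm3 at 0.69 (0.133) and Dbp at 0.069 (0.959). DESeq2 called 220 liver genes, 7 of them among the 33.

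Plasma of young mice gave no called gene in the motor cortex of male mice (0 of 13246 with edgeR, 347 at an unadjusted p of 0.05, and 0 with DESeq2). The diet change differed from the plasma change for 2 of 13457 genes (0.0149%), Arntl and Zfp180. Arntl had a log2 change of -0.53 with diet and 0.11 with plasma, a difference of -0.63 (edgeR adjusted p = 0.0158). Zfp180 had -0.29 and 0.28, a difference of -0.57 (0.0158). Both calls were lost without AL mouse 63, 66 or 68 or plasma experiment mouse 77 or 81, at adjusted p values of 0.0513 to 0.175, and DESeq2 called 22 genes, Ciart, Rbm3, Cirbp and Dbp among them. For these 4 genes the edgeR differences were 0.94, 0.71, 0.80 and 0.62 (adjusted p = 0.148 to 0.216). Sex went with the experiment, so it cannot be told apart from the treatment in this difference.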

How the data were processed

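Tissue of 15 brain regions and liver was measured by mRNA sequencing in 238 libraries. The authors deposited raw counts per gene and library; per the submitters' processing notes, Trim Galore 0.3.7, STAR 2.5.3a, DESeq2 and the GRCm38 build were used, and the counting tool is not given in the sources used here. Groups came from the labels. The motor cortex counts were filtered (edgeR's filterByExpr, minimum count 10, minimum total 15), scaled by TMM and tested with edgeR 4.0.16 (R 4.3.3, quasi-likelihood, aDR against AL in the 9 libraries, Benjamini-Hochberg adjustment over all genes tested, threshold 0.05). CPM is on TMM-scaled library sizes and is not comparable between genes. Alternatives were DESeq2 1.42.0, limma-voom (limma 3.58.1), other scalings, filters and sample sets, and leaving out each library. Diet effects in other regions were compared by interaction terms. Mouse numbers in the labels were taken to mark the same animal across regions. For the same number, deviations from the group means correlated at 0.071 on average between motor and visual cortex (9 pairs, -0.23 to 0.33). Between motor and entorhinal cortex the average was 0.14 (8 pairs, -0.053 to 0.25). For different mice of the same diet the averages were -0.020 and -0.038. The gene lists and members were chosen with earlier results of these data known. Named were all called genes, list members with an unadjusted p under 0.01 and 18 set genes; other list members were chosen after their values were seen. Some list members count in the totals and are not reported here by name. Unstranded reads of overlapping genes cannot be separated. Besides the called genes with an overlap given above, exons of other genes lie within the spans of Ankrd13a, Arntl, Fkbp5, Hrh3, Khdrbs3, Klhl40, Lrrc58, Mir9-3hg and Ppp1r1b. Fits were tested on simulated data. Totals of 4.01 M to 17.3 M counts per library limit the precision for genes of a few CPM.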

Additional observations from a re-analysis of the deposited data

Results flagged for a closer look

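The values of named genes and of library measures (total counts, mitochondrial share, share of the top genes) were examined. Each group of values held 5 aDR or 4 AL libraries. Of 172 groups, 13 (7.56%) held a library far from the others by Dixon's 95% criterion, and all 13 were of named genes. Chance gives about 1 in 20. In the aDR group, mouse 67 was the highest for C4b (47.5 CPM; the others 12.7 to 17.8), Fmo2 (9.97; 4.64 to 5.74), Per2 (70.1; 55.2 to 58.3) and Psat1 (121; 105 to 107). Mouse 62 was the highest for the haemoglobin genes Hba-a1 (45.6; 1.80 to 9.18) and Hbb-bs (31.4; 2.09 to 5.98). Mouse 64 was the highest for Calb1 (200.3; 138 to 148) and Pcsk4 (10.05; 8.78 to 8.99). Mouse 61 was the highest for Bhlhe41 (75.1; 54.2 to 60.3) and mouse 65 the lowest for Kdr (6.54; 9.79 to 10.7). In the AL group, mouse 66 was the lowest for Lpl (11.4; 14.9 to 15.4) and Tmem119 (27.7; 36.4 to 37.3), and mouse 68 the lowest for Hlf (239.8; 253 to 255).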

How the results depend on the processing

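The 33 called genes (22 higher, 11 lower) became 75 (46 and 29) with DESeq2, 66 (45 and 21) with no filter on low counts, 17 (12 and 5) with all motor cortex libraries in the fit and 6 (6 and 0) with all brain libraries of the diet experiment and no replicate block. Leaving out each library gave 9 to 128 called genes, 8 to 78 higher and 1 to 50 lower, with the fewest without AL mouse 68 and the most without aDR mouse 64. Of the 33, DESeq2 called 32 and limma-voom 31, and 4 genes (Rbm3, Ciart, Cirbp and Plin4) were called in all 17 alternatives. Of 1407 single-gene values under these alternatives, 1167 stayed on their side of the threshold in the same direction, 182 lost a call, 57 gained one and 1 changed sign: Nr1d1 ran from -0.018 (without aDR mouse 65) to 0.056 (without aDR mouse 67) on the log2 scale. With the mouse as a replicate block the differences from visual and entorhinal cortex gave 0 and 0 called genes, and 677 and 315 at an unadjusted p of 0.05, and the block changed no call. The difference between diet and plasma gave 22 genes with DESeq2 and 0 to 7 when a library was left out. The causes were not tested.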
